A study of Mus musculus with 3 samples.

Results

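The genes described here are 35 genes of DNA replication and S phase, chosen by name with earlier results of these data known. They were looked up among the 13891 genes of a single-cell table of mouse small intestine, and all 35 were found in it. They comprise 6 subunits of the MCM helicase, 5 genes that load or activate it at origins, 3 regulators of entry into S phase, 9 genes of polymerase alpha, the sliding clamp and the fork, 5 genes of nucleotide supply, 6 genes that copy or refill chromatin and DNA methylation, and Slfn9 of the schlafen family. The table held 12653 cells in 3 libraries, each 1 pool of cells from 6 male ICR mice that were 3 weeks old when treatment began. AOS 0 came from mice given water vehicle by gavage for 2 weeks. B + A 0 came from mice given a single injection of busulfan, an alkylating drug that kills dividing cells, at 40 mg/kg with the same vehicle, and B + A 10 from mice given busulfan at 40 mg/kg with alginate oligosaccharides (AOS), short sugars cut from a seaweed polymer, at 10 mg/kg by gavage. A group given AOS without busulfan was not analysed here. Where 3 values are given for the libraries, they run from AOS 0 through B + A 0 to B + A 10.

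With 1 library for each group, no test between groups was possible, and no p-value is given. The intervals below are exact 95% intervals for counting error alone, so they leave out the spread between mice, between lanes and from the choice of cells, and PCR and droplet losses. Counts are UMIs, tags that mark single captured RNA molecules at the 3′ end, and levels are UMIs of a gene per 1000000 UMIs of all genes in the same cells, called UPM below, with no scaling for gene length. The depth was 35258551 UMIs in 4106 cells of AOS 0, 26044381 in 3195 cells of B + A 0 and 23003083 in 5352 cells of B + A 10, with medians of 7371, 6407 and 3505 UMIs per cell. The libraries shared 82 cell barcodes. One label field of both busulfan libraries went against their other labels: it gave AOS at 10 mg/kg for B + A 0 and none for B + A 10, and the title, description and treatment fields, which matched each other, were followed. UMIs of an enterocyte gene in stem-like cells differed between libraries too: Apoa1, an apolipoprotein of mature enterocytes, was at 405, 1096 and 1268 UPM in the larger stem-like cluster, and its part in the results below was not tested.

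Before a cell divides, MCM helicases are loaded at replication origins in G1 by the origin recognition complex with Cdc6 and Cdt1, and are switched on at the start of S phase with Cdc45 and the GINS complex. Polymerase alpha and its primase then start each strand, the clamp loader sets the ring PCNA behind the polymerase, and flap endonuclease and ligase join the pieces of the lagging strand. Most genes of this programme are transcribed together late in G1 under E2F factors, while genes of mitosis come on later. In the intestine, division is kept to the crypt, where Lgr5 and Olfm4 stem cells and their first descendants divide, and stops as cells move onto the villus.

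The promoters of the members held E2F letters in a higher share than those of other genes. In RefSeq promoters of the GRCm38.p6 build, from 250 bases before to 50 bases after each start, 30 of the 35 members had an entry, and Mcm4, Gins2, Ccne2, Rfc2 and Atad2 had none. Some genes have several starts, and a gene was counted once if any of its promoters held the motif. The searched E2F motifs were TTTCCCGC, TTTGGCGC, TTTCGCGC and TTTGCCGC, on both strands. At least 1 of these 4 stood in 13 of the 30 members (43.3%), in 21 of 59 other replication genes (35.6%), in 2 of 50 G2 and mitosis genes (4%), in 4.34% of the 10576 genes of the table with an entry and in 2.61% of all 27025 genes with one. The looser core TTNNCGC, which overlaps all 4, stood in 24 of 30 members (80%), against 35.1% for genes in the table. CCAAT was found in 19 of 30 (63.3%, against 42.9%), and TTTGAA, the letters of the CHR element of mitotic genes, in 4 of 30 (13.3%, against 14.6%) and in 35 of 50 G2 and mitosis genes (70%). No test was run on these shares, and a match marks letters, not a bound site.

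The windows below show E2F letters that lie before or across the start, 1 window for each of 9 member promoters. Each has 30 bases, 5′ to 3′ on the strand of the gene, with every matched motif or its reverse complement in capitals. In Mcm5 a second match, on the other strand, overlaps the first. Mcm6 also has matches from 110 and 106 bases before the start, which overlap each other and are not shown. Mcm5 is on chr8:75109345-75109374 (plus strand, motif 153 bases before the start), Mcm6 on chr1:128359734-128359763 (minus strand, 47 bases before), Mcm7 on chr5:138172030-138172059 (minus, 165 before), Cdc6 on chr11:98908002-98908031 (plus, 138 before), Pola1 on chrX:93632275-93632304 (minus, 138 before), Dnmt1 on chr9:20952824-20952853 (minus, 219 before), Uhrf1 on chr17:56304117-56304146 (plus, 185 before), Hells on chr19:38930917-38930946 (plus, 62 before) and 2810417H13Rik, which RefSeq names Pclaf, on chr9:65890307-65890336 (plus, across the start, from 5 bases before it).
Mcm5: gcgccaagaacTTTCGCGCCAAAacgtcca
Mcm6: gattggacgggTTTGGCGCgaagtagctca
Mcm7: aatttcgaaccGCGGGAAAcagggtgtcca
Cdc6: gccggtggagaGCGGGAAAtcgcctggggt
Pola1: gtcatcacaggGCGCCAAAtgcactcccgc
Dnmt1: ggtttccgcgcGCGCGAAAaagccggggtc
Uhrf1: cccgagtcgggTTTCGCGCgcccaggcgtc
Hells: gaccaccgggtTTTCCCGCgaaagagaagc
2810417H13Rik: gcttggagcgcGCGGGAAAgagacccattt
Of the 19 E2F matches in member promoters, 11 ended before the start, 4 shared bases with another E2F match and 1 with a CCAAT match. Mcm3, Cdt1, Lig1 and Clspn had theirs after the start.

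Cells were sorted into classes by clustering without the 35 members, without other lists of proliferation genes and without histone genes, and classes were named after marker genes. The 2 clusters led by Olfm4 were called stem-like (1655 cells, Olfm4 at 3831 and Lgr5 at 43.5 UPM), one led by Ccl9 and Reg4 secretory progenitor-like (650 cells), those led by Gsdmc2 and by Ms4a18 early enterocyte-like (2100 cells) and 5 clusters led by Slc5a12, Fabp1, Tmigd1, Fam151a and S100g mature enterocyte-like (3481 cells), the last 2 of these on 1 marker each among their 10 leading genes. One cluster of 1436 cells led by Cdc20, Birc5 and Ube2c, genes of mitosis, had no marker of any class among its 10 leading genes and is called the cells led by Cdc20. These cells had little Olfm4 (426 UPM), almost no Lgr5 (1.16 UPM) and high Dmbt1 (1751 UPM). Of the secretory progenitor-like cells, 17.4% had a doublet score among the highest 5% of their library, against 1.79% and 1.12% in the stem-like clusters.

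The members together stood at 3229.8 UPM in stem-like cells and at 199.6 in mature enterocyte-like cells, a ratio of 16.2 (15.6 to 16.8). The level was 2484 in the cells led by Cdc20, 1977 in secretory progenitor-like cells, 358 in early enterocyte-like cells, 319 in Paneth-like cells and 208 in goblet-like cells. T cell-like cells, which are immune cells and not part of the crypt lineage, stood at 2236. They were made of 2 clusters far apart, 318 cells led by Gzma at 2687, with 7.55% of cells among the highest doublet scores and Olfm4 at 679 UPM, and 64 cells led by Ccl5 at 389. Enteroendocrine-like cells stood at 1307. The stem-like cells, the cells led by Cdc20 and the secretory progenitor-like cells made up 29.6% of cells and held 78.8% of the 97552 member UMIs. Each library showed the same order of these 3 crypt classes and of both enterocyte classes, with stem-like cells at 3400.4, 3132 and 3067 and mature enterocyte-like cells at 174, 226 and 211 UPM in the 3 libraries. The ratio of stem-like to mature enterocyte-like cells was 19.6 (18.5 to 20.7), 13.8 (13 to 14.8) and 14.5 (13.6 to 15.5) in the 3 libraries. Taken by itself, each library had 35 of 35 members at least 2-fold higher in stem-like cells, where 36.9%, 34.5% and 32.8% of the genes with enough UMIs were.

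**Figure D1:**
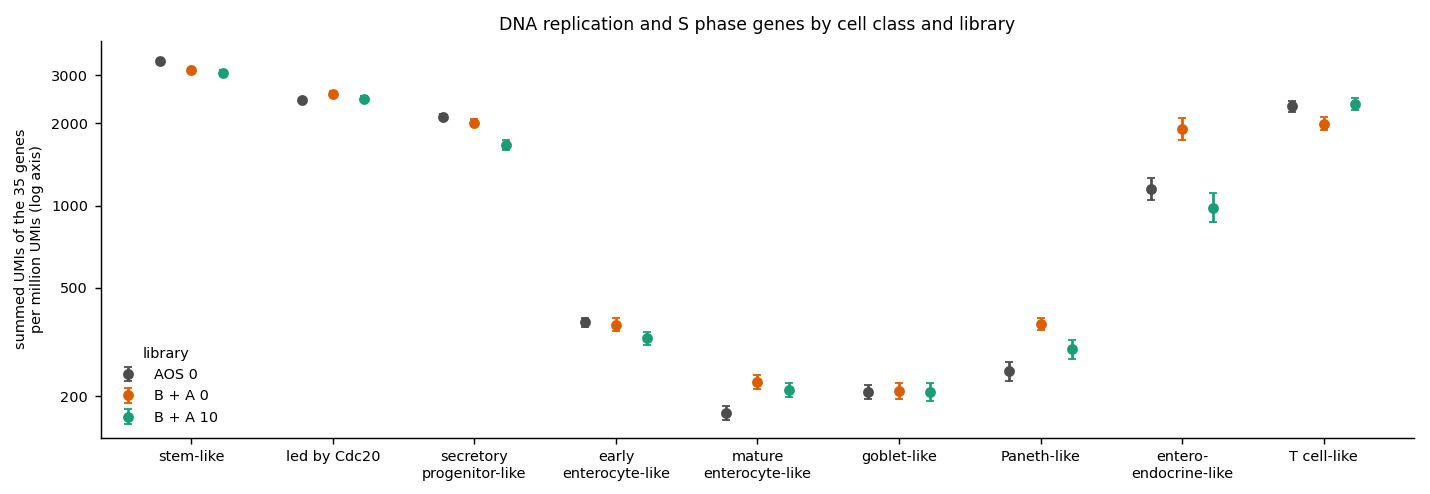
Summed level of the 35 members in UPM, UMIs per 1000000 UMIs (log axis), in 9 cell classes, 1 point per library with its 95% counting interval. The 3 crypt classes on the left lie between 1668 and 3400.4, both enterocyte classes lie between 174 and 373, and T cell-like cells lie among the crypt classes.

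All 35 members were at least 2-fold higher in stem-like than in mature enterocyte-like cells, where 36.8% of the 11228 genes with enough UMIs were, and the median member ratio was 28.7 beside 1.32 for all genes. All 35 were also at least 2-fold higher than in early enterocyte-like cells, where 24.6% of 11097 genes were. These counts are not independent of the data, since the members were chosen with earlier results of these data known. Of the other replication genes, 66 of 73 passed the same mark against mature enterocyte-like cells with a median ratio of 10.8, and 58 of 60 G2 and mitosis genes did. The most abundant of the other replication genes were Dctpp1, Rnaseh2c, Rpa3, Ssrp1, Pole4, Nasp, Gmnn, Cdca7, Supt16 and Pole3, and their ratios ran from 2.40 for Pole3, a subunit of polymerase epsilon also found in chromatin complexes, to 40.1 for Cdca7, a partner of Hells. Among the less abundant ones, Pold4 at 0.543 (0.459 to 0.641), E2f2 at 0.657 (0.558 to 0.771) and Cdc25a at 0.779 (0.685 to 0.885) were lower in stem-like cells.

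Of the MCM subunits, 5 had a ratio of stem-like to mature enterocyte-like cells above the member median of 28.7, and Mcm2 lay below it. Mcm2, Mcm3, Mcm4, Mcm5, Mcm6 and Mcm7 stood at 62.3, 75.1, 61.3, 87.9, 117.7 and 87.3 UPM in stem-like cells and at 3.79, 1.48, 2.07, 2.61, 3.62 and 2.49 in mature enterocyte-like cells. Their ratios ran from 16.4 (12.7 to 21.6) for Mcm2 to 50.7 (34.1 to 78.7) for Mcm3. The genes that load and activate MCM followed: Cdt1 at 58.6 against 4.68, Orc6 at 47.7 against 1.90, Gins2 at 53.7 against 1.30, Cdc45 at 20.7 against 0.533 and Cdc6 at 13.6 against 0.474, with 8 and 9 UMIs of Cdc6 and Cdc45 in all mature enterocyte-like cells. Loading and activation genes thus had ratios from 12.5 (9.91 to 16.0) for Cdt1 to 41.2 (27.0 to 66.3) for Gins2.

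The ratios of the fork genes ran from 5.20 for Rfc2 to 44.6 for 2810417H13Rik. 2810417H13Rik, which encodes a small protein that rides on PCNA, gave 16697 UMIs, the most of any member, and stood at 520.9 UPM in stem-like cells, 509.8 in the cells led by Cdc20, 348 in secretory progenitor-like, 72.3 in early and 11.7 in mature enterocyte-like cells. Pcna, the sliding clamp, stood at 257, 196, 149, 66.5 and 43.7 in the same classes, so that it kept a level of 17% (15.6% to 18.4%) of its stem-like level in mature enterocyte-like cells where 2810417H13Rik kept 2.24% (1.94% to 2.58%). Rfc2, a subunit of the clamp loader, kept 19.2% (16.8% to 21.9%), with 89.1 against 17.1. Lig1, the ligase of the lagging strand, stood at 154 against 8.77, Fen1, the flap endonuclease, at 66.7 against 5.69 and Rpa2, a subunit of the single-strand binding complex, at 66.6 against 4.56. Prim1, the primase, Clspn, a checkpoint mediator at the fork, and Pola1, the catalytic subunit of polymerase alpha, were scarcer, at 40.3, 26.1 and 22.0 in stem-like cells, and had ratios of 34.0, 36.6 and 37.2.

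The ratios of the nucleotide supply genes ran from 21.1 for Rrm1 to 43.5 for Tk1, and the chromatin genes held both the highest and the lowest ratio of all members. Dut, which removes dUTP, was at 219 against 6.70, Tyms, thymidylate synthase, at 148 against 6.34, Tk1, thymidine kinase, at 87.7 against 2.01, and Rrm1 and Rrm2, the subunits of ribonucleotide reductase, at 83.7 against 3.97 and 58.1 against 2.31. Hells, a chromatin remodeller needed for DNA methylation, had the highest ratio of all members, 52.5 (39.5 to 71.2), with 152 against 2.90. Dnmt1, which copies methylation onto the new strand, was at 99.5 against 5.10, Uhrf1, which brings Dnmt1 to newly copied DNA, at 82.1 against 3.32, Chaf1b, a subunit of the assembly factor CAF-1, at 29.3 against 0.889 and Atad2, a bromodomain ATPase, at 47.7 against 2.13. Slbp, which binds the 3′ stem-loop of histone mRNA, had the lowest ratio of all members, 3.997 (3.64 to 4.39), with 144 against 36.1. Slfn9 stood at 96.4 against 3.20. The G1 to S regulators were low everywhere: E2f1 was at 21.9 against 0.652, and the cyclins Ccne1 and Ccne2 at 16.6 against 2.55 and at 13.8 against 2.49.

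**Figure D2:**
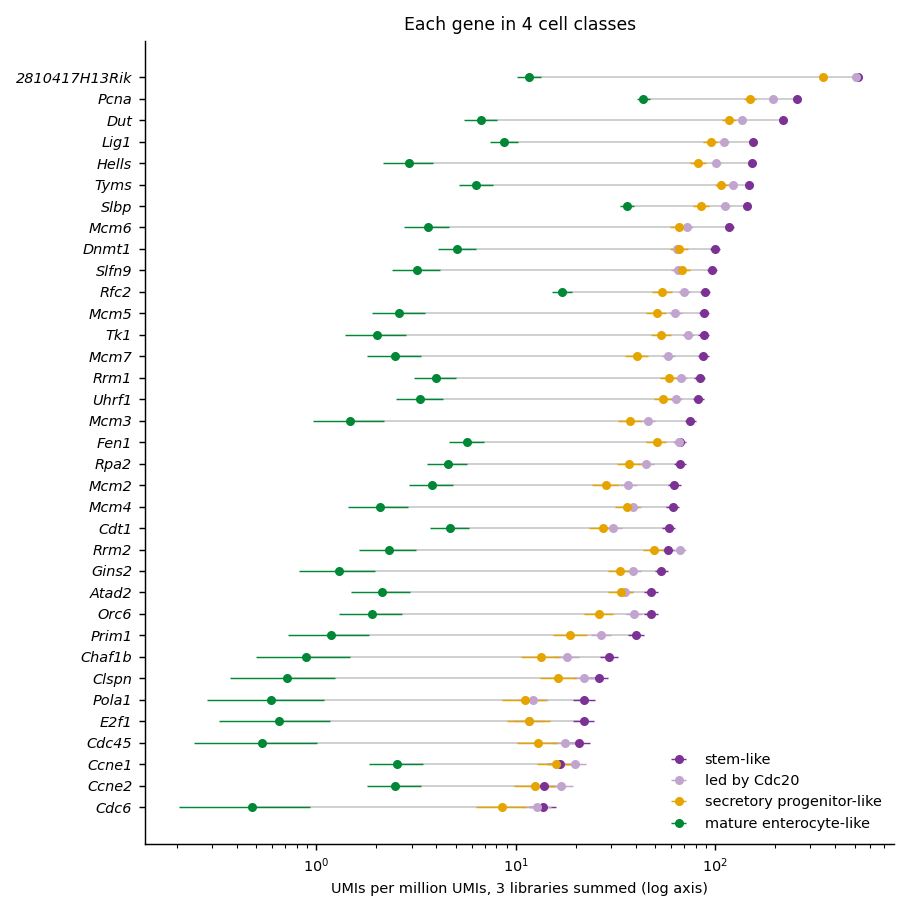
Level of each member in UPM (log axis) in stem-like cells, the cells led by Cdc20, secretory progenitor-like and mature enterocyte-like cells, with 3 libraries summed, bars for the 95% counting interval and genes sorted by the stem-like level. The gap to the mature enterocyte-like point is shortest for Slbp, Rfc2, Ccne2, Pcna and Ccne1 and widest for Hells and Mcm3.

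The low levels in mature enterocyte-like cells were set beside Olfm4, a stem gene whose UMIs there give a scale for RNA from stem-like cells. Olfm4 stood there at 1.10% (1.02% to 1.19%) of its stem-like level over all libraries, and at 0.567%, 1.63% and 1.47% in the 3 libraries. The median member stood at 3.48%, and at 2.37%, 5.37% and 4.80% in the 3 libraries. The counting interval lay above that of Olfm4 for 34 of 35 members over all libraries, Cdc45 being the exception, and for 24, 24 and 26 in the single libraries. The share of all genes that did so was not counted. The median gene was only 1.32 times higher in stem-like than in mature enterocyte-like cells, so lying above Olfm4 is not particular to the members. Slbp (25.0%), Rfc2 (19.2%), Ccne2 (18%), Pcna (17.0%) and Ccne1 (15.3%) lay far above Olfm4. Olfm4 is not a like scale for the members, which were also high in classes with little Olfm4. Over all cells Olfm4 stood at 712.5 UPM against 3831 in stem-like cells, and the members at 1157 against 3229.8. How much of the members' level here was RNA from other cells was not tested. In mature enterocyte-like cells the summed members were 1.30 times (1.20 to 1.41) higher in B + A 0 than in AOS 0 and 1.21 times (1.12 to 1.32) higher in B + A 10 than in AOS 0, while Olfm4 there was 23.0, 62.4 and 50.8 UPM in the 3 libraries, and the part of RNA from other cells in that difference was not tested.

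The cells led by Cdc20 held less of most members than stem-like cells. Their summed level was 0.769 times (0.757 to 0.781) that of stem-like cells, while G2 and mitosis genes stood at 6962 UPM against 5647. Here 23 of 35 members were at least 20% lower, where 14.8% of 7640 genes were, and 0 of 35 were as much higher, where 21.3% were. Cdt1, E2f1 and Pola1 were lowest relative to stem-like cells, at 0.525 (0.460 to 0.599), 0.533 (0.428 to 0.660) and 0.555 (0.448 to 0.686). 2810417H13Rik at 0.979 (0.944 to 1.01) and Fen1 at 0.989 (0.893 to 1.10) were close to 1, and Rrm2 at 1.14 (1.03 to 1.27) was the 1 member with an interval above 1. Ccne1 and Ccne2 had their highest level in these cells, at 19.7 and 16.8, though the intervals of their ratios to stem-like cells, 1.19 (0.974 to 1.45) and 1.22 (0.980 to 1.51), reached below 1. In secretory progenitor-like cells 32 of 35 members were at least 20% lower than in stem-like cells, where 35.2% of 6932 genes were, and 0 of 35 higher, where 14.7% were. The ratio ran from 0.455 (0.381 to 0.540) for Mcm2 to 0.952 (0.734 to 1.23) for Ccne1. Of the 35 members, 30 were highest in stem-like cells, and Cdc6, Rfc2 and Rrm2 were highest in T cell-like cells, at 15.9, 98.5 and 85.5 UPM. The share of all genes with their highest level in stem-like cells was not counted. The intervals of Cdc6 (10.9 to 22.3) and Rfc2 (85.5 to 113) in T cell-like cells overlapped those in stem-like cells (11.6 to 15.9 and 83.7 to 94.6), and that of Rrm2 (73.4 to 99.1 against 53.8 to 62.7) did not.

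Shares of cells were taken after thinning each cell to 1000 UMIs, since the libraries differed in depth. At least 3 member UMIs were then held by 901 of 1655 stem-like cells, 54.4% (52.0% to 56.9%), by 42.7% of the cells led by Cdc20, 27.4% of secretory progenitor-like cells, 1.48% of early enterocyte-like cells and 2 of 3481 mature enterocyte-like cells, 0.0575% (0.00696% to 0.207%). Without thinning the share was 97.6% in stem-like and 9.05% in mature enterocyte-like cells, at medians of 5920 and 4222 UMIs per cell. The share depends on the cut, since 250 stem-like cells held exactly 3 member UMIs and 331 held 2. At 1000 UMIs per cell, counting noise alone moves cells across the cut, so these counts cannot tell a range from separate types. In stem-like cells the share was 52.8% (48.5% to 57.1%) in AOS 0, 55.0% (50.2% to 59.8%) in B + A 0 and 55.3% (51.5% to 59.1%) in B + A 10, and the differences between libraries, 2.23 points (-4.08 to 8.49) for B + A 0 minus AOS 0 and 0.267 points (-5.66 to 6.23) for B + A 10 minus B + A 0, did not exceed counting error. Of stem-like cells, 39.3% also held at least 3 UMIs of G2 and mitosis genes, 15.2% held members without them and 15.3% held neither.

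Within stem-like cells the members did not move as a block when cells were ordered by the UMIs of the 60 G2 and mitosis genes. The summed members stood at 2828, 3164, 3593 and 3059.7 UPM in cells with 0, 1 to 2, 3 to 5 and 6 or more thinned UMIs of those genes, in 130, 375, 515 and 635 cells. The third group was the highest in each library, but the ratio of the last group to the first was 1.24 (1.15 to 1.34), 1.03 (0.949 to 1.13) and 0.911 (0.837 to 0.992) in the 3 libraries. From the lowest to the highest group the interval of the ratio lay above 1 for 4 members, below 1 for 10 and on both sides of 1 for 21, where it lay above 1 for 7.94% and below 1 for 5.06% of 9582 genes with at least 20 UMIs. The median ratio was 0.861 beside 1.05 for all genes. In each library taken singly, the ratios of 2810417H13Rik, Tk1, Rrm1 and Tyms were above 1 and those of E2f1, Cdt1 and Mcm2 below 1. 2810417H13Rik climbed through all 4 groups, at 206, 344, 518 and 639.6, a ratio of 3.10 (2.62 to 3.70). Tk1 went from 47.9 over 66.9 and 87.8 to 101.7, a ratio of 2.12 (1.49 to 3.12), and Rrm1 and Tyms had ratios of 1.62 (1.17 to 2.31) and 1.498 (1.19 to 1.91). E2f1 went the other way, at 30.5, 28.2, 26.7 and 14.8, a ratio of 0.487 (0.297 to 0.830). Cdt1, at 0.553 (0.408 to 0.762), Mcm2, at 0.558 (0.418 to 0.757), and Mcm4, Mcm6, Mcm3, Uhrf1, Slbp, Pcna and Hells, at 0.639 to 0.799, were lower in cells with the most G2 and mitosis UMIs. The members that were lower thus included the licensing factor Cdt1, the factor E2f1 and 4 of 6 MCM subunits, and the members that were higher were the PCNA partner and 3 genes of nucleotide supply. An E2F motif stood in the promoters of 5 of 9 of the former with an entry and 1 of 4 of the latter. The G2 and mitosis genes stood at 6468 and 2585 UPM in the 2 stem-like clusters, so the groups of cells can differ in their mix of clusters. The part of that mix in these ratios was not tested.

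**Figure D3:**
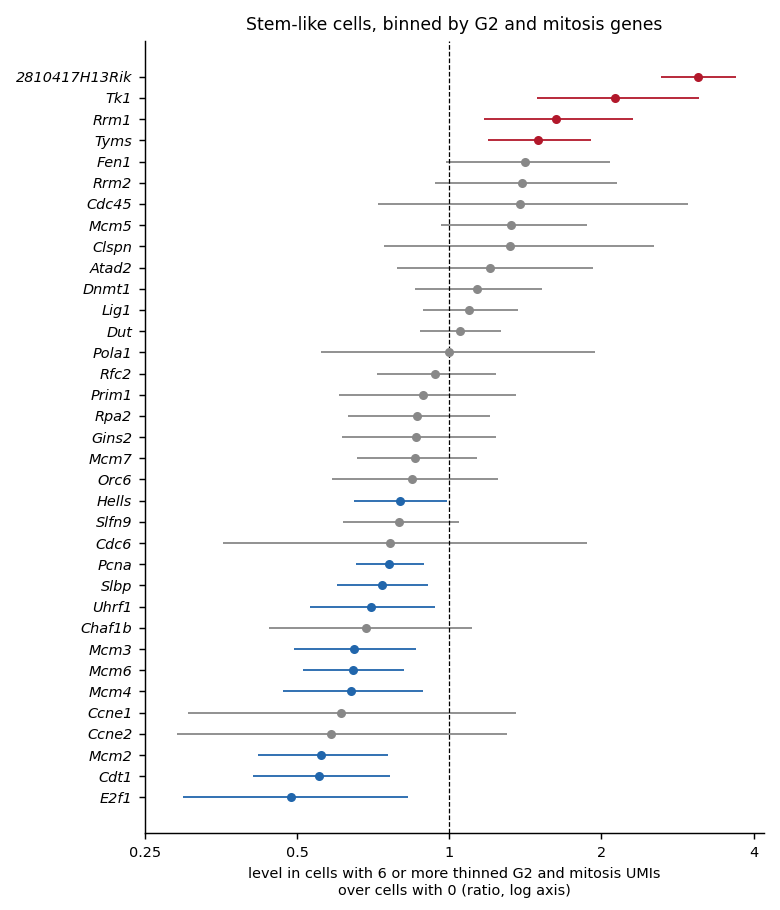
Ratio (log axis) of each member's level in stem-like cells with 6 or more thinned UMIs of G2 and mitosis genes to that in cells with none, with its 95% counting interval, sorted. Red marks the 4 members whose interval lies above 1, led by 2810417H13Rik at 3.10, and blue the 10 below 1, down to E2f1 at 0.487.

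Each member was also set against the other 34 in the same cells. From stem-like cells with none to cells with 6 or more thinned UMIs of the other members, all 35 had a ratio with an interval above 1, where 6.46% of 8188 genes did and 4.46% had one below 1. The median was 2.40 beside 1.02 for all genes. Clspn (11.9, 4.49 to 44.9), Ccne1 (8.07, 2.99 to 30.6), E2f1 (7.53, 3.07 to 23.9), Rrm2 (4.57, 2.95 to 7.39), Cdc45 (3.86, 1.90 to 8.84) and Ccne2 (3.85, 1.73 to 10.1) had the steepest ratios. Clspn went from 4.02 to 48.0 UPM. In the lowest group these genes had 4, 4, 5, 23, 9 and 7 UMIs, and their intervals overlapped, so their order is not settled. Fen1 (1.39), Rrm1 (1.59) and Cdt1 (1.68) had the flattest, and 2810417H13Rik, with the most UMIs, had 1.88, with 403 UPM in cells where the others gave none. Over the 20 clusters, the genes outside all lists whose level followed that of the summed members most closely by Pearson correlation were Nup62, Ncl, Nup43, Bcl7c, Snrpd1, Anp32b, 2700094K13Rik and Hirip3, with r from 0.977 to 0.969 over clusters that share libraries and depth. The summed G2 and mitosis list had r = 0.909.

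Between libraries, the stem-like level of the members differed little. The summed level in B + A 0 was 0.921 times (0.899 to 0.944) that in AOS 0, in B + A 10 it was 0.979 times (0.953 to 1.01) that in B + A 0 and 0.902 times (0.880 to 0.925) that in AOS 0. The G2 and mitosis genes stood at 0.857, 0.944 and 0.809 in these comparisons and the other replication genes at 0.916, 0.982 and 0.8997. Gene by gene, the median ratio of all genes with at least 200 UMIs was 0.948, 0.979 and 0.923, so a typical gene was below 1 too. The median member ratio was 0.927, 0.972 and 0.943. The B + A 0 and B + A 10 comparisons with AOS 0 share that library. In B + A 0 over AOS 0, 3 of 29 members with enough UMIs were at least 20% lower and 0 higher, where 10.5% and 4.56% of 4667 genes were, so that the members' share was near that of all genes. Orc6 was at 58.1, 40.1 and 39.4 UPM in the 3 libraries, a ratio of 0.690 (0.560 to 0.848) for B + A 0 over AOS 0. Gins2 was at 62.8, 46.2 and 47.6, with 0.735 (0.604 to 0.892). For both, the AOS 0 library was the high one and the busulfan libraries were alike. Chaf1b was at 32.8, 25.3 and 28.2, and its ratio of 0.770 had an interval that reached 1.00.

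Of the 6 chromatin genes, 3 were higher in B + A 10 than in B + A 0. Hells was at 141, 139 and 185 UPM in stem-like cells in the 3 libraries, Uhrf1 at 78.4, 72.6 and 98.2 and Dnmt1 at 97.6, 90.04 and 112.6. These 3, which act together in the upkeep of DNA methylation, were the members at least 25% higher in B + A 10 than in B + A 0, with 1.33 (1.18 to 1.503), 1.35 (1.14 to 1.60) and 1.251 (1.07 to 1.46), and 3 of 27 members were so where 5.11% of 3832 genes were. Mcm7 was the 1 member as much lower, at 83.9, 99.6 and 79.2 in the 3 libraries with 0.794 (0.673 to 0.937), where 5.85% of genes were. The other 3 chromatin genes, Atad2 at 0.910 (0.728 to 1.14), Slbp at 1.08 (0.947 to 1.23) and Chaf1b at 1.11 (0.821 to 1.51), had intervals that spanned 1. Summed, these 3 stood at 1.04 (0.938 to 1.16). Summed over the group, the fork genes stood at 0.912 (0.871 to 0.954) and nucleotide supply at 0.920 (0.862 to 0.981).

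In B + A 10 over AOS 0, 8 of 29 members were at least 20% lower, where 20.5% of 4576 genes were, and 2 were higher, Uhrf1 and Hells, where 8.24% were. 2810417H13Rik was at 594, 492 and 437 UPM in the 3 libraries, a ratio of 0.735 (0.690 to 0.784). Tk1 was at 103, 83.9 and 67.3, with 0.652 (0.553 to 0.765), and Pcna at 284, 248 and 226, with 0.795 (0.726 to 0.871). For these 3 genes each library lay below the one named before it. The others that were lower were Prim1 (0.658), Orc6 (0.679), Rfc2 (0.738), Gins2 (0.757) and Mcm4 (0.798). Of the other replication genes, 15 of 42 were as much lower, among them Topbp1 (0.627), Tipin (0.630) and Rfc5 (0.664), and Dck (1.67), Cdca7 (1.37) and Mcmbp (1.31) were higher. The share of stem-like cells with 6 or more thinned UMIs of G2 and mitosis genes, where 2810417H13Rik and Tk1 were highest, was 42.9%, 39.4% and 34.2% in the 3 libraries, and its part in these ratios was not tested.

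The cells led by Cdc20 repeated part of this pattern in other cells of the same libraries. In B + A 10 over AOS 0, intervals lay on the same side of 1 in both classes for Dnmt1 and Hells, which were higher, and for Prim1, Rfc2, 2810417H13Rik and Tk1, which were lower. The share of all genes that did so was not counted. Mcm4 (0.936), Orc6 (0.981), Gins2 (1.005) and Pcna (0.975), at least 20% lower in stem-like cells, had intervals here that spanned 1, as did Uhrf1 (1.15). The summed members stood at 2444, 2572 and 2465 UPM in the 3 libraries. Dnmt1 was at 53.3, 63.7 and 83.6 UPM in the 3 libraries in these cells, a ratio of 1.57 (1.32 to 1.87), and Hells at 85.3, 111.8 and 117.8, with 1.38 (1.20 to 1.59). Mcm2 (1.37), Cdt1 (1.37) and Mcm6 (1.26) were also at least 25% higher, so that 5 of 27 members were, where 8.43% of 4629 genes were, and 3 of 27 (Prim1, Tk1, Rfc2) were lower, where 22% were. In B + A 0 over AOS 0, Rpa2 (1.36) and Hells (1.31) were higher, where 4.49% of genes were, and 0 of 27 lower, where 12.9% were. Orc6 (1.11), Gins2 (1.004) and Chaf1b (1.24), lower in stem-like cells in that comparison, had intervals here that spanned 1. In B + A 10 over B + A 0, Dnmt1 (1.31) was higher, where 4.83% of genes were, and Rpa2 (0.738), Tk1 (0.778) and Mcm7 (0.787) were lower, where 6.42% were. Hells and Uhrf1, higher in stem-like cells in that comparison, stood at 1.05 (0.906 to 1.23) and 1.08 (0.885 to 1.32) in the cells led by Cdc20.

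In secretory progenitor-like cells the members were lower in B + A 10. Their summed level was 2108, 2011 and 1668 UPM in the 3 libraries, a ratio of 0.829 (0.786 to 0.874) for B + A 10 over B + A 0 and 0.791 (0.752 to 0.832) over AOS 0. In B + A 10 over AOS 0, 6 of 13 members were at least 20% lower, where 23.6% of 2354 genes were, and 0 higher, where 6.24% were: Tyms (0.625), 2810417H13Rik (0.646), Tk1 (0.653), Slbp (0.749), Lig1 (0.770) and Pcna (0.789). In B + A 10 over B + A 0, 3 of 10 were lower, where 8.1% were (Tyms, 2810417H13Rik and Hells), and 0 higher, where 3.31% were. In B + A 0 over AOS 0, Mcm5 (1.28) and Hells (1.29) were higher, where 4.13% of genes were, and 0 of 17 lower, where 10.7% were. The G2 and mitosis genes were lower too, at 6143, 5118 and 4401 UPM.

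**Figure D4:**
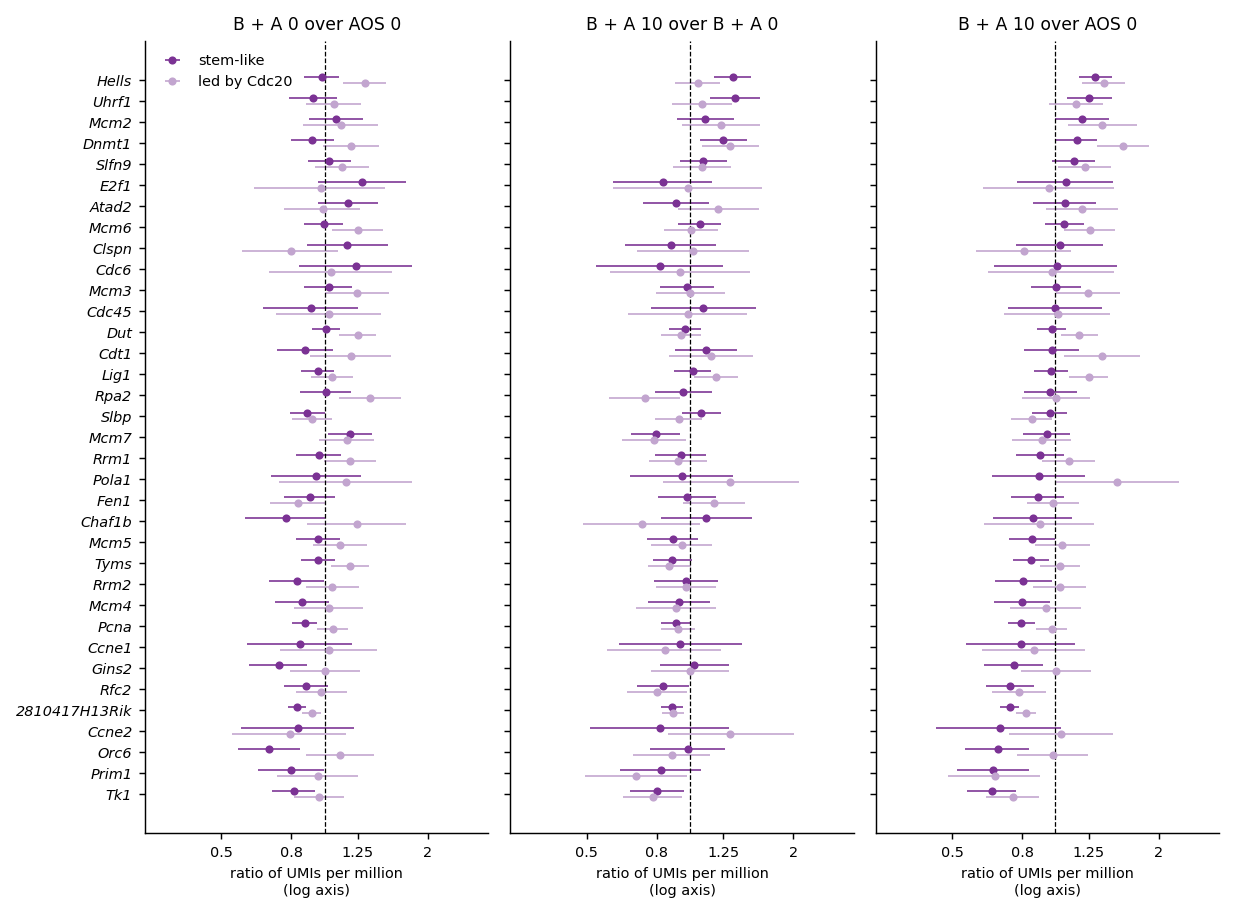
Ratio of UPM (log axis) of each member between libraries, for 3 pairs of libraries, in stem-like cells (dark) and in the cells led by Cdc20 (light), with 95% counting intervals and genes sorted by B + A 10 over AOS 0 in stem-like cells. Hells, Uhrf1 and Dnmt1 lie right of 1 and Tk1, Prim1, Rfc2 and 2810417H13Rik left of it in the right-hand panel.

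The stem-like class was made of 2 clusters, and the members differed between libraries in opposite directions in them. The larger held 1119 cells and the smaller, with more Lgr5 (94.8 against 29.8 UPM) and more Olfm4 (5594 against 3358), held 536. Members stood at 3429.5 UPM in the larger and 2486 in the smaller, a ratio of 1.38 (1.34 to 1.42), and G2 and mitosis genes at 6468 and 2585. The interval lay above 1 for 22 members, led by Tk1 (2.40), Rrm2 (2.37) and 2810417H13Rik (2.37), on both sides of 1 for 13, among them Mcm2 (0.853), Cdt1 (0.916), Slbp (1.02) and E2f1 (1.05), and below 1 for none of the 35, where it lay above 1 for 14.2% and below 1 for 8.26% of 10430 genes. In the larger cluster the members were at 3660.1, 3308 and 3164 in the 3 libraries. In the smaller they were at 2199, 2468 and 2800.4, with ratios of 1.12 (1.05 to 1.20) for B + A 0 over AOS 0, 1.13 (1.07 to 1.21) for B + A 10 over B + A 0 and 1.27 (1.20 to 1.35) for B + A 10 over AOS 0. The order of the libraries was thus reversed between the clusters. With other clusterings the ratio of B + A 10 to AOS 0 in the Lgr5-richest stem-like cluster was 1.16 (1.10 to 1.23) at resolution 1.5 and 1.09 (1.03 to 1.16) with proliferation genes kept in the clustering, while that of B + A 0 to AOS 0 was 1.06 (0.999 to 1.13) and 0.980 (0.919 to 1.04), so that it did not exceed counting error there.

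In the smaller, Lgr5-rich cluster 26 of 33 members with at least 20 UMIs had a ratio of B + A 10 to AOS 0 above 1, where 43.8% of 6888 genes did. In the larger cluster 8 of 35 did, where 39% of 9670 genes did. In the smaller cluster Hells was at 88.4, 127.8 and 196.6 UPM in the 3 libraries, a ratio of 2.22 (1.69 to 2.94) for B + A 10 over AOS 0. Uhrf1 was at 42.5, 56.9 and 92.5 there, with 2.17 (1.46 to 3.29). Rrm2 in the smaller cluster was at 13.4, 34.7 and 37.4, on 12, 25 and 32 UMIs, and 2810417H13Rik at 207, 275 and 276, where in the larger cluster it was at 677.5, 549.8 and 495. Pcna was at 219, 228 and 225 in the smaller cluster and at 298, 254 and 226 in the larger, so that its difference between libraries lay in the larger cluster. After thinning, at least 3 member UMIs were held by 28.7% (21.6% to 36.6%) of the smaller cluster's cells in AOS 0, 41.9% (33.1% to 51.1%) in B + A 0 and 45.8% (39.7% to 52.0%) in B + A 10, a difference of 17.1 points (7.42 to 26.1) for B + A 10 minus AOS 0, and by 62.3%, 60.3% and 61.2% in the larger cluster. The smaller cluster held 28.2%, 28.4% and 38.1% of stem-like cells in these libraries, with medians of 5819, 5186 and 3029 UMIs per cell, and the part of depth in which cells fell into it was not tested. G2 and mitosis genes in it stood at 2123, 2838 and 2855 UPM, and Lgr5 at 100.7, 99.98 and 84.3. Olfm4 in it was at 6648, 5164 and 4853 and the enterocyte gene Apoa1 at 688, 1208 and 1325, and their part in the members' difference was not tested.

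**Figure D5:**
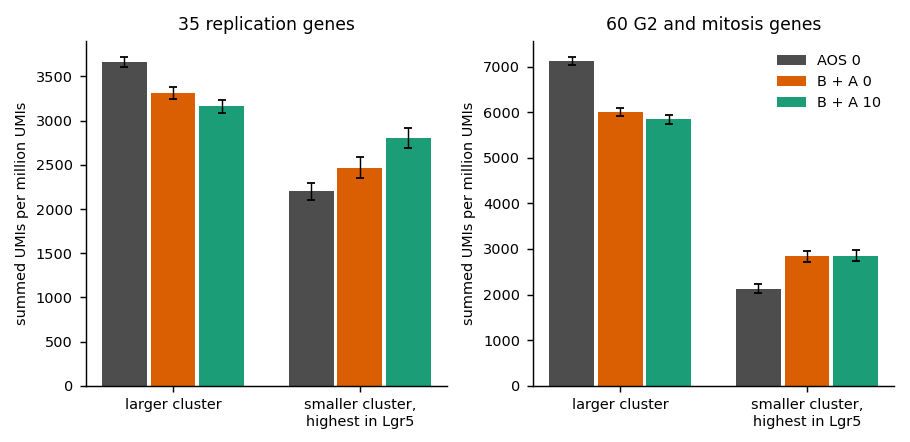
Summed UPM of the 35 members (left) and of 60 G2 and mitosis genes (right) in the larger stem-like cluster and in the smaller one with the most Lgr5, 1 bar per library with its 95% counting interval. Member bars step down from 3660.1 to 3164 in the larger cluster and up from 2199 to 2800.4 in the smaller.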

How the data were processed

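The authors made the table from droplet 3′ libraries with Cell Ranger 2.2.0, and per the labels and the study's methods they kept cells with at least 200 detected genes and genes found in at least 3 cells. The deposited values were natural log values of 1 plus UMIs per 10000 UMIs of the cell. From these the whole UMIs of each cell were recovered, and 100% of 24333763 values above 0 came out whole within 0.01 UMI. The smallest value of a cell, or the fraction of it that made all of its values whole, was taken as 1 UMI. Recovered UMIs were summed by class and library. Cells were clustered with Seurat 5.3.0 in R 4.3.3 (2000 variable genes, 20 dimensions of canonical correlation, 20 neighbours, resolution 0.8), with 295 proliferation and histone genes left out. A cluster took the class whose markers were most frequent among its 10 leading genes, and was unnamed with none or with stem and mature markers together, a rule chosen after the clusters were seen. Doublets were kept in the main values and scored with Scrublet as run by scanpy 1.11.5, and leaving out the highest 5% of scores was an alternative.

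The genes named are all 35 members, the 10 other replication genes with the most UMIs and others past the fold, the markers, and 8 genes that follow the members. A member was called between classes at 2-fold with at least 20 UMIs over both classes, and between libraries or crypt classes when at least 25% higher or 20% lower with at least 200 UMIs. Levels carry exact Poisson intervals, ratios exact binomial intervals of the UMIs in both groups, shares exact binomial intervals, and differences of shares Newcombe intervals, all at 95%. The ratio script was tested on simulated counts. The members and lists were chosen with earlier results of these data known. Samples were grouped by their labels. Alternatives of clustering, cells, scaling, members, folds and filters were tried.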

Additional observations from a re-analysis of the deposited data

Results flagged for a closer look

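These results were singled out because the same comparison of libraries pointed one way in one group of cells and the other way in another, each beyond counting error, with 1 library per group, so that the difference itself was not tested. For the summed members, B + A 0 over AOS 0 was 1.05 (1.02 to 1.08) in the cells led by Cdc20, 0.921 (0.899 to 0.944) in stem-like cells and 0.954 (0.915 to 0.994) in secretory progenitor-like cells. The median ratio of all genes with at least 200 UMIs was 0.940, 0.948 and 0.947 in these classes. Within the stem-like class, the larger cluster gave 0.904 (0.88 to 0.928) and the smaller, Lgr5-rich cluster 1.12 (1.05 to 1.2) for B + A 0 over AOS 0, 0.956 (0.927 to 0.986) and 1.13 (1.07 to 1.21) for B + A 10 over B + A 0, and 0.864 (0.841 to 0.889) and 1.27 (1.2 to 1.35) for B + A 10 over AOS 0.

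Lig1, the ligase of the lagging strand, stood at 1.249 (1.09 to 1.43) in B + A 10 over AOS 0 in the cells led by Cdc20 and at 0.77 (0.605 to 0.975) in secretory progenitor-like cells. Hells stood at 1.33 (1.18 to 1.5) in B + A 10 over B + A 0 in stem-like cells and at 0.76 (0.587 to 0.978) in secretory progenitor-like cells, on 93 and 195 UMIs. Without the cells of the highest doublet scores the latter was 0.795 (0.593 to 1.06) and no longer beyond counting error, and Lig1 was 1.28 (1.12 to 1.46) and 0.661 (0.502 to 0.862).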

How the results depend on the processing

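No paired analysis was possible because each group had 1 library, and for the same reason no replicate could be left out. The cause of the shifts below was not tested. The ratio of summed members in stem-like cells reversed in the smaller stem-like cluster, to 1.12 for B + A 0 over AOS 0 and 1.27 for B + A 10 over AOS 0, and was 1.13 there for B + A 10 over B + A 0; it was 0.864 for B + A 10 over AOS 0 in the larger cluster. These splits, and those by doublets in secretory progenitor-like cells (0.891 for B + A 0 and 0.726 for B + A 10 over AOS 0), were added after the data were seen. In the Lgr5-richest stem cluster the ratio of B + A 10 to AOS 0 was 1.16 at resolution 1.5 and 1.09 with proliferation genes kept in the clustering; at resolution 0.4 and without joining there was 1 stem-like cluster. With proliferation genes kept in the clustering, the stem-like level was 2503, its ratio to mature cells 12.4, the share of cells 43.1% and B + A 10 over AOS 0 0.936. The mean over cells gave 3196, 15.6, 0.953 for B + A 0 and 0.926 for B + A 10 over AOS 0. Leaving ribosomal, mitochondrial and defensin genes out of the total gave 4580.3, 21.5 and 0.930 for B + A 10 over AOS 0, and leaving out 2810417H13Rik 2709, 14.4 and 0.937. Resolution 0.4 gave a ratio to mature cells of 15.5. The share of cells was 74.4% at 2 and 25.3% at 5 member UMIs. At a fold of 1.5, 0 members were lower in B + A 0 than AOS 0, 0 higher and 0 lower in B + A 10 than B + A 0, and 0 higher and 2 lower in B + A 10 than AOS 0. With a filter of 50 UMIs or none, 1 member was higher in B + A 0 than AOS 0. The other 52 stayed within their intervals or, for counts, within 1.5 times, though 10 of 35 members in place of 8 of 29 were lower in B + A 10 than AOS 0 with a filter of 50 UMIs or none, and 34 of 35 passed between classes at a fold of 4. The shares of all genes given earlier belong to the main folds and filters and cannot be set beside these counts.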
